A study of Mus musculus with 8 samples.

Results

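The 7 genes described here, Klrg1, Klrb1c, Klrb1f, Klrc1, Klrc2, Klrd1 and Klrk1, encode killer lectin receptors, and they were taken by name from the 53465 gene identifiers of mouse Treg RNA libraries. RNA was sequenced from Treg cells of spleen and lymph nodes at 3 to 4 weeks of age, with 1 library per condition. The mice are listed as C57BL/6. All mice carried R26 CAG-FlpoER, a recombinase that becomes active on tamoxifen (TAM). BRG1, encoded by Smarca4, is the ATPase of a chromatin remodelling complex, and Cre expressed from Foxp3 deleted the floxed allele (F) in Treg cells. The number of mice behind a library was not given in the sources used here. The second allele, ΔR, is a GFP-reporting gene trap that TAM removes. Per the paper, ΔR mice were made on a mixed background and backcrossed to C57BL/6 for 3 generations. The part of strain differences in the values below was not tested.

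In the total Treg experiment, 6 libraries were compared. The WT library came from Brg F/+; Foxp3 YFP-Cre/+ mice, so it is heterozygous for Brg1. The mosaic libraries came from Brg F/ΔR females in which Cre sits on a single X chromosome. Brg1-sufficient Treg cells (no Cre, labelled Foxp3 +/+) and Brg1-deleted Treg cells (Cre) thus live in the same animals. The paper gives YFP-positive as part of its Treg sort, yet describes the mosaic Brg1-sufficient cells as YFP-negative. No separate gate is stated for them, so the mosaic libraries differed in their sort. The rKO1 mice were Brg F/ΔR; Foxp3 YFP-Cre/YFP-Cre mice with severe inflammation, and they gave a library of untreated Brg1-deleted Treg cells. On Day 7 after a single low dose of TAM, rKO1 mice gave 2 more libraries, Brg1-deleted (GFP+) and Brg1-reexpressed (GFP-) Treg cells, the latter listed as Brg F/+. In the aTreg experiment, which was scaled separately, 2 libraries of sorted activated Treg cells (CD44 high, CD62L low) carried the same 2 labels, with Brg F/F given for the Brg1-deleted and Brg F/+ for the Brg1-reexpressed library, both Foxp3 YFP-Cre/YFP-Cre. The titles of both name rKO1 mice on Day 7 after TAM, and the paper also describes the aTreg cells as from rKO1 mice. For the Brg1-deleted aTreg library, the Brg F/F genotype and a WT heading of its values in the deposited data conflict with that title. No condition had a replicate, so no difference between conditions has a p-value. Intervals below are exact 95% intervals of read counting and do not cover differences between mice.

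Killer lectin receptors are C-type lectin-like proteins best known from natural killer (NK) cells and CD8 T cells. KLRG1 is an inhibitory receptor that binds cadherins and marks terminally differentiated effector lymphocytes, among them effector Treg cells. NKG2A (Klrc1) and NKG2C (Klrc2) pair with CD94 (Klrd1) and recognise the non-classical class I molecule Qa-1, NKG2A as an inhibitor and NKG2C as an activator. NKG2D (Klrk1) is an activating receptor for stress ligands, NK1.1 (Klrb1c) is an activating receptor that defines NK cells in C57BL/6 mice, and Klrb1f encodes a receptor of the same NKR-P1 group.

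All members lie on chromosome 6 (GRCm38). Klrg1 is at chr6:122270596-122282882 on the minus strand, 6496 kb from the nearest of the other members. The other 6 lie within 900 kb of the NK gene complex, from Klrb1c at chr6:128778485-128789215 to Klrc1 at chr6:129666015-129678973. Inhibitory receptors carry a tyrosine motif (ITIM) in the cytoplasmic tail, which in these type II membrane proteins is encoded at the start of the coding sequence. The first 60 coding bases of Klrg1 and Klrc1, the members with such a motif there, are shown beside those of the activating receptor Klrc2, with the 18 bases of the ITIM in capitals. The bases are from GENCODE M21. Those of Klrg1 are at chr6:122282752-122282811, those of Klrc1 at chr6:129678851-129678910 and those of Klrc2 at chr6:129660497-129660556, all on the minus strand.
Klrg1: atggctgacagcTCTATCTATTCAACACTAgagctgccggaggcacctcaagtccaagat
Klrc1: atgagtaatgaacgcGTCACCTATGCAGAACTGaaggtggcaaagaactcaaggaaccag
Klrc2: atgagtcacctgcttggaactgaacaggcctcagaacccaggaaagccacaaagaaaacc
The motif began at codon 5 in Klrg1 and at codon 6 in Klrc1. Over the first 60 codons, the pattern also matched at codon 54 of Klrg1 and codon 53 of Klrb1c, and it was not found in Klrb1f, Klrc2, Klrd1 or Klrk1. It is a loose pattern, present over the same stretch in 7.52% of 21476 coding genes.

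Libraries held between 16313162 and 24079181 reads on genes, so that 1 read was worth 0.0411 to 0.0602 CPM, the read count scaled to a common library total. CPM was used to compare a gene between libraries, and FPKM, which also divides by exon length, to compare genes. Treg identity was checked first. Foxp3, the defining transcription factor, ranged from 84.0 to 616 CPM in the total Treg libraries, lowest in WT, and stood at 93.8 and 62.1 CPM in the aTreg libraries labelled Brg1-deleted and Brg1-reexpressed. Il2ra (CD25) ranged from 243 to 424 CPM and Ikzf2 (Helios) from 307 to 959 CPM over the 6 total Treg libraries. Smarca4, the targeted gene, followed the labels in the total Treg experiment, at 87.9 CPM in WT, 77.0 in mosaic Brg1-sufficient and 58.0 in Brg1-reexpressed cells, and at 47.1 in mosaic Brg1-deleted, 44.0 in untreated rKO1 and 36.0 in TAM-treated Brg1-deleted cells. In the aTreg experiment it went against them, with 71.2 CPM in the library labelled Brg1-deleted and 59.4 CPM in that labelled Brg1-reexpressed. Both aTreg libraries are therefore named here only by their labels. Reads of all 4 Y-linked genes examined were found in the 3 rKO1 and both aTreg libraries and in none of the other 3, so sex differed between conditions, and the YFP-Cre/YFP-Cre genotype, which on the X chromosome is that of a female, went against these reads.

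Klrg1 was the member that carried nearly all of the family's RNA. It had 716 reads (43.1 CPM) in WT, 1048 (49.4 CPM) in mosaic Brg1-sufficient, 58 (2.38 CPM) in mosaic Brg1-deleted, 1012 (52.9 CPM) in untreated rKO1, 718 (39.2 CPM) in TAM-treated Brg1-deleted and 3665 (218 CPM) in Brg1-reexpressed Treg cells. In the aTreg libraries it had 1503 reads (84.9 CPM) under the Brg1-deleted label and 5378 (273 CPM) under the Brg1-reexpressed label. Thus 4 of the total Treg libraries lay close together, the mosaic Brg1-deleted library lay far below them and the Brg1-reexpressed library far above. On the FPKM scale, Klrg1 was 4.78 times (mosaic Brg1-deleted) to 33.9 times (Brg1-reexpressed) the next member in the total Treg libraries, and 53.8 and 66.4 times in the aTreg libraries. It made up 73.2% to 97.6% of the summed FPKM of the 7 genes.

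**Figure D1:**
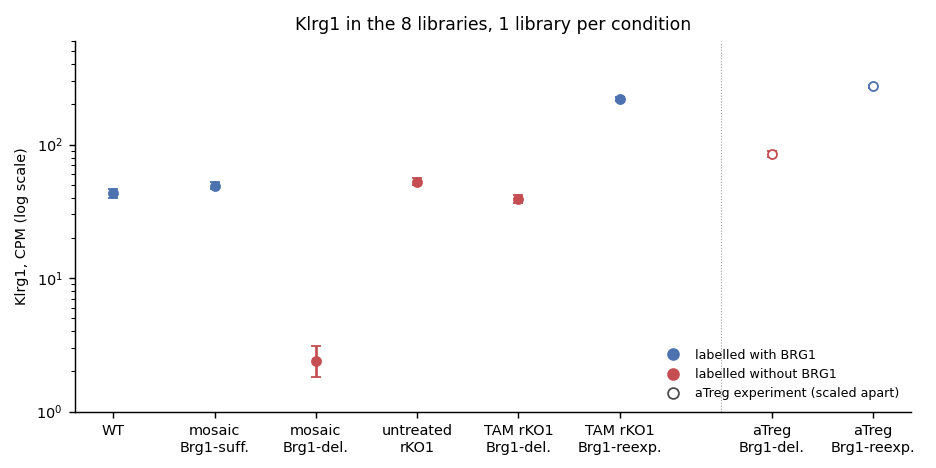
Klrg1 level in CPM (log scale) in the 6 total Treg libraries and, right of the dotted line, the 2 aTreg libraries. Points are single libraries, bars are exact 95% Poisson intervals of read counting, blue and red mark the labels with and without BRG1. Mosaic Brg1-deleted cells sit at 2.38 CPM, Brg1-reexpressed cells at 218 CPM and the other 4 total Treg libraries between 39.2 and 52.9 CPM.

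Ordered by level, Brg1-reexpressed cells exceeded untreated rKO1 cells 4.13-fold (interval 3.85 to 4.44). Untreated rKO1 cells were 1.07 times mosaic Brg1-sufficient cells (0.980 to 1.17), a ratio whose interval includes 1. Mosaic Brg1-sufficient cells were 1.15 times WT cells (1.04 to 1.26), and WT cells were 1.10 times TAM-treated Brg1-deleted cells (0.992 to 1.22). The latter were 16.4 times mosaic Brg1-deleted cells (12.6 to 21.8).

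Deletion of Brg1 in mosaic females was the first contrast. A gene was tested where 1 of the libraries compared held 5 CPM or more. Of the 10059 genes so tested, 6.08% differed at least 2-fold, the rule by which a gene was called changed here. Klrg1 fell 20.7-fold (15.9 to 27.5), by 4.37 on the log2 scale, which placed it 15th from the bottom. For comparison, 95% of genes of similar level differed by less than 1.25 on the log2 scale between libraries of comparable cells (the wider of WT against mosaic Brg1-sufficient and untreated against TAM-treated Brg1-deleted rKO1). No other member reached 5 CPM in either mosaic library, so 1 of 7 was tested and called. Klrb1f had 89 reads in Brg1-sufficient and 9 in Brg1-deleted cells, a ratio of 11.3 (5.71 to 25.6). Klrb1c had 29 and 2 reads, Klrk1 had 41 and 6, and Klrd1, the CD94 chain, had 18 and 11. Genes of other lymphocytes were also lower in the Brg1-deleted library. Ncr1 (NKp46), an NK cell gene, had 104 and 1 reads, Klrb1a 19 and 0, and Klrb1b 18 and 0, while Fcer1g fell 3.65-fold and Tcrg-C1, a gamma-delta T cell receptor gene, fell 2.70-fold. The 14 NK cell markers summed to 59.2 and 26.3 CPM. Their part in the Klrg1 difference was not tested, nor was that of the sort, which differed in YFP. Fewer cells with a transcript and less RNA per cell cannot be told apart in such bulk RNA, for Klrg1 or any other gene.

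Reexpression of BRG1 in rKO1 mice was the reverse contrast, in an inflamed animal. Klrg1 rose 5.58-fold (5.15 to 6.05) from Brg1-deleted to Brg1-reexpressed Treg cells of TAM-treated mice, and ranked 57th of 10316 genes tested from the top. Its log2 fold change of 2.48 was beyond the library-to-library range at its level. It was 1 of 2 members tested, against a background of 12.7% of genes called. The other, Klrb1f, had 195 reads (10.6 CPM) in Brg1-deleted and 155 (9.24 CPM) in Brg1-reexpressed cells, a log2 difference of -0.20 (-0.52 to 0.11). Klrb1f thus did not follow Klrg1 here, although both were lowest in mosaic Brg1-deleted cells. Klrc1, the inhibitory NKG2A chain, had 20 reads in Brg1-deleted and 57 in Brg1-reexpressed cells, 3.12 times more (1.84 to 5.47) at levels below the 5 CPM filter. Its partner Klrd1 had 46 and 35 reads. Klrb1c and Klrk1 ran the other way, with 47 and 64 reads in Brg1-deleted and 4 and 27 reads in Brg1-reexpressed cells.

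Brg1-deleted Treg cells in inflamed rKO1 mice did not show the low Klrg1 of the mosaic. Untreated rKO1 cells had 1.23 times the Klrg1 of WT cells (1.11 to 1.35) and 1.07 times that of mosaic Brg1-sufficient cells. Against WT, 15.7% of genes were called and 1 of the 2 members tested, Klrb1f, which was 2.12 times higher in the rKO1 cells (1.47 to 3.09) but lay inside the library-to-library range. Against mosaic Brg1-sufficient cells, 17.3% of genes were called and neither of the 2 members tested. These 2 comparisons share the untreated rKO1 library. TAM-treated Brg1-deleted cells had 1.35 times less Klrg1 than untreated ones (1.23 to 1.49), and here 4.42% of genes were called and again neither member tested. WT against mosaic Brg1-sufficient cells called 9.32% of genes and not Klrg1, the single member tested. Brg1-reexpressed cells stood above the mosaic Brg1-sufficient ones as well, with Klrg1 4.42 times higher (4.13 to 4.74) and Klrb1f 2.20 times higher (1.69 to 2.89). Both members tested were called, against 21.8% of all genes, and for Klrb1f the difference stayed inside the library-to-library range.

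**Figure D2:**
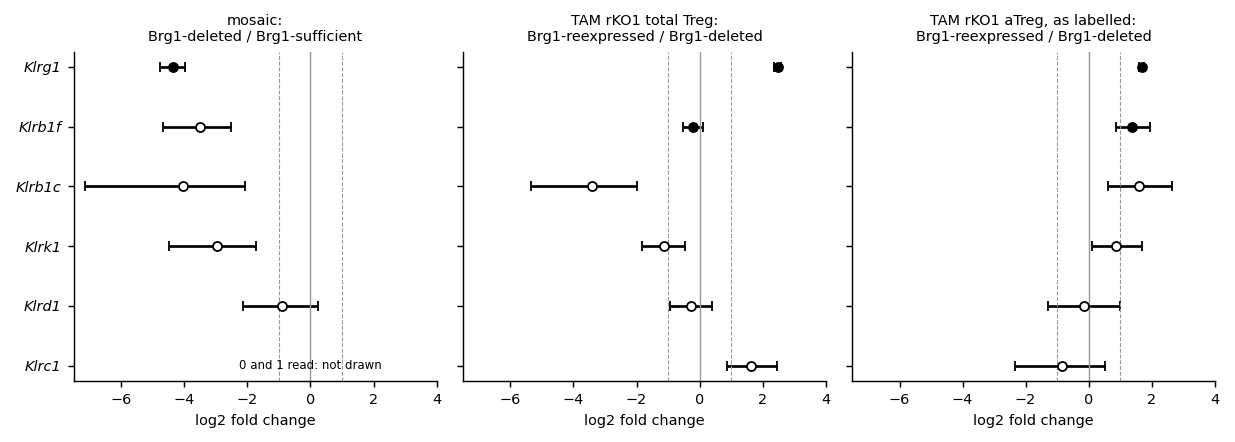
Log2 fold changes of 6 members (first library over second, as titled) with exact 95% intervals of read counting, for the mosaic, TAM-treated rKO1 and aTreg comparisons. Filled points passed the 5 CPM filter, open points did not, Klrc1 is not drawn in the mosaic panel (0 and 1 reads), and dashed lines mark 2-fold. Klrg1 lies at -4.37, 2.48 and 1.69, while Klrb1c lies on the negative side in both total Treg panels.

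In activated Treg cells, Klrg1 rose 3.22-fold (3.04 to 3.41) from the library labelled Brg1-deleted to that labelled Brg1-reexpressed, ranking 162nd of 10035 genes. Klrb1f rose 2.61-fold (1.81 to 3.83), from 40 to 116 reads, which is inside the library-to-library range borrowed from the total Treg experiment. Both members tested were called, where 6.44% of all genes were. Klrb1c had 12 and 40 reads, Klrk1 had 22 and 45, Klrd1 had 15 and 15, Klrc1 had 13 and 8, and Klrc2 had 4 and 3 in the same order. The direction of this comparison rests on labels that Smarca4 went against. All 5 sex-linked genes tested were also called in it, the 4 on the Y chromosome lower and Xist higher in the library labelled Brg1-reexpressed.

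The other 6 members were rare. Klrb1f had 43 reads in WT, 89 in mosaic Brg1-sufficient, 9 in mosaic Brg1-deleted, 105 in untreated rKO1, 195 in TAM-treated Brg1-deleted and 155 in Brg1-reexpressed cells. It passed 5 CPM in the 3 rKO1 libraries, where it was highest, and its first 2 places did not differ beyond counting error (ratio 1.15, 0.927 to 1.43). Klrc1 had 17, 0, 1, 14, 20 and 57 reads in the same order. Both mosaic libraries were thus at or under the floor of 3 reads. With 0 set to that floor, the 57 Klrc1 reads of Brg1-reexpressed cells were 24.0-fold above mosaic Brg1-sufficient cells. The counting interval of 57 against 0 reads, without that floor, began at 18.9-fold. Klrc2, its activating relative, had 0, 1, 0, 19, 3 and 1 reads, so that untreated rKO1 cells alone stood above the floor. Klrd1 had 15, 18, 11, 8, 46 and 35 reads, highest in both TAM-treated libraries. Of 100-base stretches in the transcripts of Klrc1, 14.6% also occur in Klrc2, and of those of Klrc2, 7.09% occur in Klrc1 or Klrc3. For Klrb1c, 10.8% occur in Klrb1a or in the overlapping gene model Gm44511. Reads from these stretches cannot be assigned to 1 gene, while Klrg1, Klrb1f, Klrd1 and Klrk1 shared none.

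**Figure D3:**
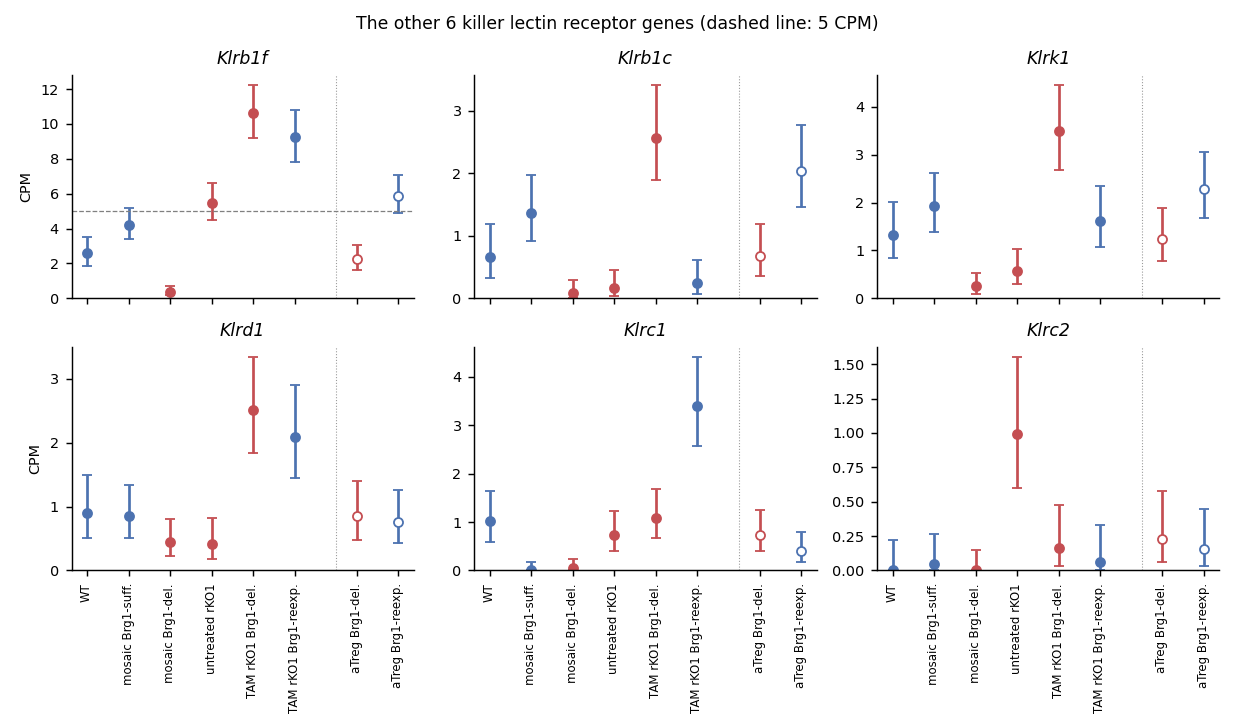
CPM of the 6 members other than Klrg1 in each library (linear axes, 1 panel per gene, aTreg libraries right of the dotted line), with exact 95% Poisson intervals. Klrb1f alone reaches the dashed 5 CPM line, in the rKO1 libraries and in the aTreg library labelled Brg1-reexpressed. Klrb1f, Klrb1c, Klrk1 and Klrd1 share their highest total Treg library, the TAM-treated Brg1-deleted cells.

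Genes of NK cells were examined beside the members, because a few NK or CD8 T cells in a sort would bring killer lectin transcripts with them. Ncr1 (NKp46), which defines NK and related innate lymphoid cells, had 7 reads in WT, 104 in mosaic Brg1-sufficient, 1 in mosaic Brg1-deleted, 7 in untreated rKO1, 122 in TAM-treated Brg1-deleted and 0 in Brg1-reexpressed cells. Among the total Treg libraries, the one with by far the most Klrg1 thus had no Ncr1 read. With 0 set to the floor of 3 reads, this was 37.2-fold less than in the TAM-treated Brg1-deleted library. Klrb1b, another NKR-P1 gene, had 18 reads in mosaic Brg1-sufficient and 74 in TAM-treated Brg1-deleted cells and 0 in the other 4 total Treg libraries. Klrb1a had 19 and 27 reads in those same 2 libraries and between 0 and 3 in the others. Eomes, a transcription factor of NK and CD8 T cells, had 3 reads in Brg1-reexpressed cells and 17 to 136 elsewhere. Klre1 had at most 4 reads in any total Treg library. Sh2d1b1 (EAT-2), an NK adaptor, did not follow Ncr1, with 27, 3, 2, 64, 25 and 26 reads in the order of the 6 libraries. For the whole list of 14 NK cell markers, summed levels ran from 26.3 to 155 CPM over the total Treg libraries, with 5 to 8 genes above 3 reads. Brg1-reexpressed cells were at 48.1 CPM, most of it from Tyrobp (184 reads) and Fcer1g (421 reads), adaptors that myeloid cells also express. The same adaptors held 587 and 639 of 1448 reads of the list in WT. In untreated rKO1 cells they held 871 and 1366 of 2963 reads.

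Klrb1c and Klrk1, but not Klrg1, had their highest values where Ncr1 was high. Klrb1f and Klrd1 were also highest in the TAM-treated Brg1-deleted library, at 1.15 and 1.20 times the Brg1-reexpressed one, ratios whose intervals include 1. Klrb1c had 11 reads in WT, 29 in mosaic Brg1-sufficient, 2 in mosaic Brg1-deleted, 3 in untreated rKO1, 47 in TAM-treated Brg1-deleted and 4 in Brg1-reexpressed cells. Klrk1 had 22, 41, 6, 11, 64 and 27 reads. Over the 6 libraries, log2(CPM + 1) of Klrb1c had a Pearson r of 0.95 with Ncr1 and 0.17 with Klrg1, and Klrk1 had 0.78 and 0.54. Klrb1f had 0.43 with Ncr1 and 0.85 with Klrg1, and Klrc1 had -0.29 and 0.74. For Klrg1 and Ncr1 the value was 0.09. These values describe 6 libraries that share mice and depth, and they carry no test. The part of the NK cell genes in the Klrb1c and Klrk1 values was not tested.

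CD8 T cell genes were followed next. Cd8a had 8 reads in WT, 61 in mosaic Brg1-sufficient, 76 in mosaic Brg1-deleted, 13 in untreated rKO1, 21 in TAM-treated Brg1-deleted and 4 in Brg1-reexpressed cells. Cd8b1 had 272, 462, 420, 110, 161 and 188 reads. The mosaic Brg1-deleted library, with the least Klrg1, had the most Cd8a, and the Brg1-reexpressed library, with the most Klrg1, had the least. Cd8b1 was not called in any of the mosaic, TAM and aTreg contrasts. In the aTreg experiment, several of these genes moved with Klrg1. In the library labelled Brg1-reexpressed, Ncr1 had 41 reads against 8, Cd8a 59 against 7, Klrb1b 12 against 0 and Klrb1a 10 against 0, whereas Cd8b1 had 311 against 427. The 14 NK cell markers summed to 132 against 45.6 CPM. Their part in the aTreg difference of Klrg1 was not tested.

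**Figure D4:**
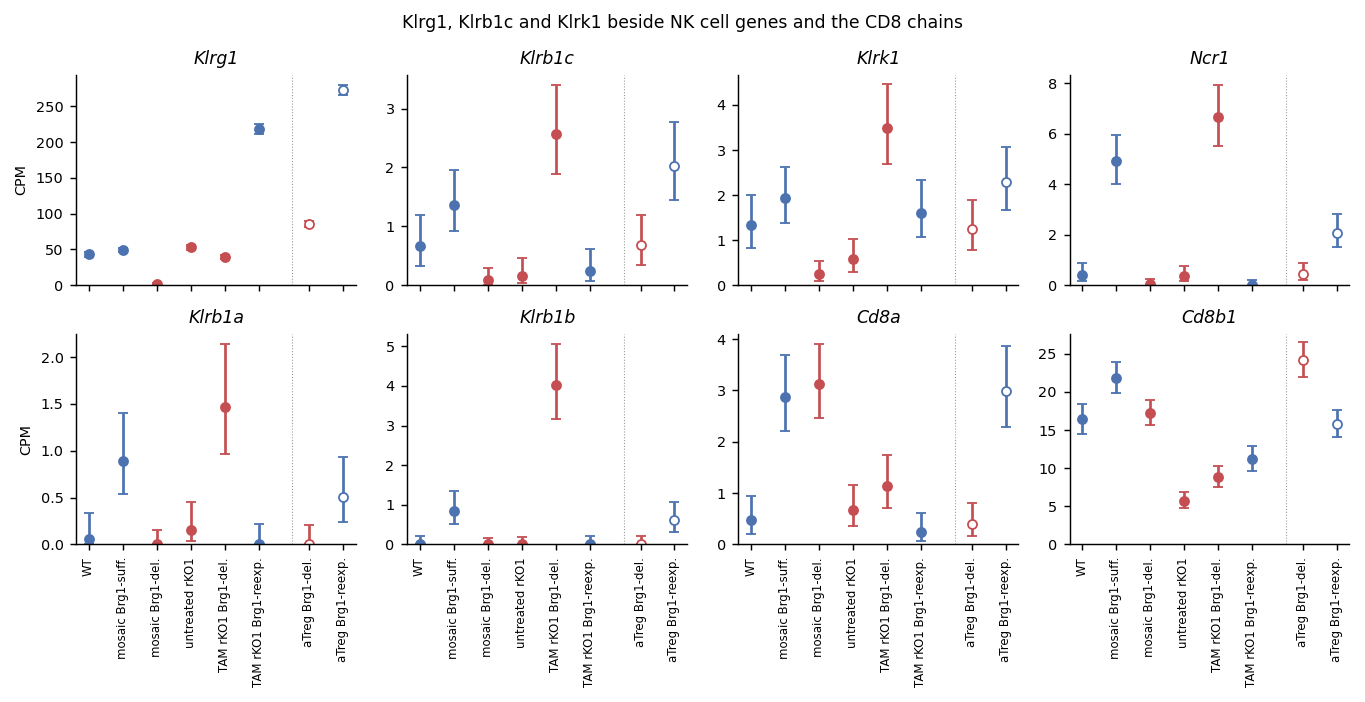
CPM of Klrg1, Klrb1c and Klrk1 beside the NK cell genes Ncr1, Klrb1a and Klrb1b and the CD8 chains Cd8a and Cd8b1 in each library (linear axes of different scale, exact 95% Poisson intervals, aTreg right of the dotted line). Ncr1 peaks at 4.90 and 6.65 CPM in mosaic Brg1-sufficient and TAM-treated Brg1-deleted cells, where Klrb1c and Klrk1 peak too, and is at 0 where Klrg1 is at 218 CPM.

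Other cell types were followed the same way. Of the 18 other killer lectin genes (mostly the Ly49 genes of NK cells), no gene reached 5 CPM, and their summed level ran from 0.361 to 6.76 CPM in the total Treg libraries, highest in TAM-treated Brg1-deleted cells. The 6 gamma-delta and innate-like T cell markers summed to between 5.48 CPM (Brg1-reexpressed) and 73.2 CPM (WT). In the TAM contrast both of those tested fell, Tcrg-C1 27.5-fold and Tcrg-C2 from 137 to 2 reads (ratio 62.7, interval 17.0 to 523). The 7 myeloid markers summed to between 49.6 CPM (Brg1-reexpressed) and 406 CPM (WT) in the total Treg libraries, and 5 of 6 tested were lower in Brg1-reexpressed cells, Adgre1 (F4/80), S100a8 and Lyz2 furthest. The 6 B cell markers summed to between 12.0 CPM (untreated rKO1) and 74.5 CPM (WT), and 1 of 2 tested, Cd79b, was higher in Brg1-reexpressed cells. In the aTreg libraries labelled Brg1-deleted and Brg1-reexpressed, the myeloid markers summed to 473 and 697 CPM, higher where Klrg1 was higher, and the B cell markers to 91.6 and 67.5 CPM. Their part in the aTreg difference was not tested. Brg1-reexpressed cells thus had the lowest sums of the gamma-delta and myeloid lists among the total Treg libraries, but not of the NK, CD8 or B cell list.

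The partners of the receptors were examined on both sides. On the ligand side, 11 genes were in the files. Cdh1 (E-cadherin) and Cdh2 (N-cadherin), ligands of KLRG1, had at most 8 and 3 reads in any library. H2-T23 (Qa-1), the ligand of CD94/NKG2A, had between 16558 and 32590 reads in the total Treg libraries and was not called in the mosaic, TAM or aTreg contrast. In the TAM contrast 1 of 4 ligand genes tested was called, Ulbp1 (MULT1), an NKG2D ligand, which was 2.03 times higher in Brg1-reexpressed cells (1.66 to 2.49). Of 8 adaptors, kinases and phosphatases, 7 were tested in each contrast. Hcst (DAP10), the NKG2D adaptor, was abundant in all total Treg libraries and changed 1.11-fold with reexpression. Inpp5d (SHIP-1) and Ptpn11 (SHP-2), recruited by the ITIM of KLRG1, changed 1.25-fold and 0.815-fold. The 2 genes called were Tyrobp (DAP12) and Fcer1g, which the NK cell list also holds. They fell 2.54-fold and 2.64-fold in the TAM contrast and rose 3.07-fold and 2.94-fold in the aTreg contrast. In the mosaic, Fcer1g alone was called of the 7, and it fell 3.65-fold.

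Genes of effector Treg cells were then counted, against 6.08%, 12.7% and 6.44% of all genes called in the mosaic, TAM and aTreg contrasts. The list held 19 genes without Klrg1, and it overlaps the lists of cytotoxic genes (Gzmb) and of transcription factors (Prdm1, Rora, Batf, Irf4, Gata3). In the mosaic, 12 of 17 tested fell with Brg1 deletion and none rose, with a median log2 fold change of -1.30 against -0.03 over all genes tested. Fgl2, Cxcr3 and Tigit fell 27.3-fold, 18.6-fold and 16.4-fold, near the 20.7-fold of Klrg1. In the TAM contrast, 8 of 19 rose and 2 fell, with a median of 0.87 against 0.06. Gzmb (granzyme B) rose 7.28-fold, Fgl2 5.70-fold and Cxcr3 5.26-fold, while Pparg fell 3.92-fold and Il1rl1 (ST2), a receptor of tissue Treg cells, fell 2.14-fold. In the aTreg contrast, 6 of 18 rose and none fell, with a median of 0.60 against -0.06.

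Of 11 cytotoxic granule and chemokine genes tested in the TAM contrast, where 12.7% of all genes were called, 7 rose and 2 fell, and their median was 1.78 on the log2 scale against 0.06 over all genes. Gzma rose 14.1-fold, Gzmc 8.92-fold and Gzmb 7.28-fold, while Xcl1 fell 3.61-fold and Fasl 2.33-fold. In the mosaic (6.08% of all genes called), 5 of 9 fell and 1, Fasl, rose, with a median of -1.02 against -0.03. Gzma had 172 reads in Brg1-sufficient and 0 in Brg1-deleted cells. With 0 set to the floor of 3 reads, Gzma was 65.8-fold lower. The counting interval of 172 against 0 reads, without that floor, began at 52.9-fold. In the aTreg contrast (6.44% of all genes called), 9 of 10 rose, with a median of 1.85 against -0.06. Naive T cell genes went the opposite way in the TAM contrast, where 4 of 8 fell (3 of them, Bach2, Tcf7 and Id3, also in the list of transcription factors), Bach2 9.78-fold, Tcf7 6.88-fold and Ccr7 5.08-fold, and the median was -1.28. In the mosaic 2 of 8 rose and 1 fell, with a median of 0.31, and in the aTreg contrast none of the 8 was called, with a median of -0.48. Of effector transcription factors, 10 were tested in the TAM contrast, where Prdm1 (Blimp-1) rose by 1.80 on the log2 scale and Bach2, Tcf7 and Id3 fell. The median of the 10 was 0.10. In the mosaic 1 rose and 4 fell (median -0.64), and in the aTreg contrast 1 rose (median 0.17). Tbx21 (T-bet) was 1.59 times higher in Brg1-reexpressed cells (1.35 to 1.88), under the 2-fold rule, and fell 4.72-fold in the mosaic. Of 9 Treg identity genes, Ctla4 alone was called in the TAM contrast and rose 2.87-fold, while 2 fell in the mosaic and 2 in the aTreg contrast.

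Genes whose levels were most like those of Klrg1 over the 6 total Treg libraries were picked by rule. Among 7520 genes with at least 20 CPM in 1 library, Pearson r with Klrg1 was 0.997 for S100a11, 0.996 for Gm6637, 0.991 for Gm7665 and 0.989 for Ei24, all among the 5 highest, and 221 genes had an r above 0.9. With 6 points dominated by 1 low and 1 high library, such values are common and carry no test. S100a11, a calcium-binding protein, fell 12.0-fold in the mosaic and rose 2.19-fold in the aTreg contrast. Ei24 did not keep the likeness in the aTreg libraries (0.839-fold). Gm7665 is annotated as a processed pseudogene, and its reads moved with those of S100a11.

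Gm6637 stood out by its position, which the rule did not use. This processed pseudogene lies 12.8 kb beyond the annotated start of Klrg1, at chr6:122295664-122296045 on the opposite strand, and no other gene model lies between them. It had 848 reads in WT, 1188 in mosaic Brg1-sufficient, 59 in mosaic Brg1-deleted, 1695 in untreated rKO1, 994 in TAM-treated Brg1-deleted and 6699 in Brg1-reexpressed cells, and 1291 and 4791 in the aTreg libraries labelled Brg1-deleted and Brg1-reexpressed. For each Klrg1 read there were between 1.02 and 1.83 Gm6637 reads in the total Treg libraries, and 0.859 and 0.891 in the aTreg libraries. It fell 23.1-fold in the mosaic, rose 7.37-fold with reexpression and rose 3.34-fold in the aTreg contrast, where Klrg1 changed 20.7-fold, 5.58-fold and 3.22-fold. Gm6637 was picked for its likeness to Klrg1 in the total Treg libraries, so only the aTreg values are independent of that choice. The sequence resembles Snu13, a ribonucleoprotein gene, with 328 of 382 aligned bases (85.9%) the same. The best matching 120 bases, at chr6:122295668-122295787 on the plus strand, are shown with the 4 bases that differ from Snu13 in capitals.
Gm6637: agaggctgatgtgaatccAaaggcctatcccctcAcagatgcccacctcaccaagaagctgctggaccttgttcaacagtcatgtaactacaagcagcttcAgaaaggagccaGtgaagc
None of its 283 stretches of 100 bases occurred in another annotated transcript. Snu13 itself ranged from 319 to 474 CPM in the total Treg libraries and changed 1.04-fold in the mosaic, 1.02-fold with reexpression and 0.979-fold in the aTreg contrast. The cDNA kit does not mark strand, so reads of Gm6637 and reads of an unannotated part of a Klrg1 transcript cannot be told apart.

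**Figure D5:**
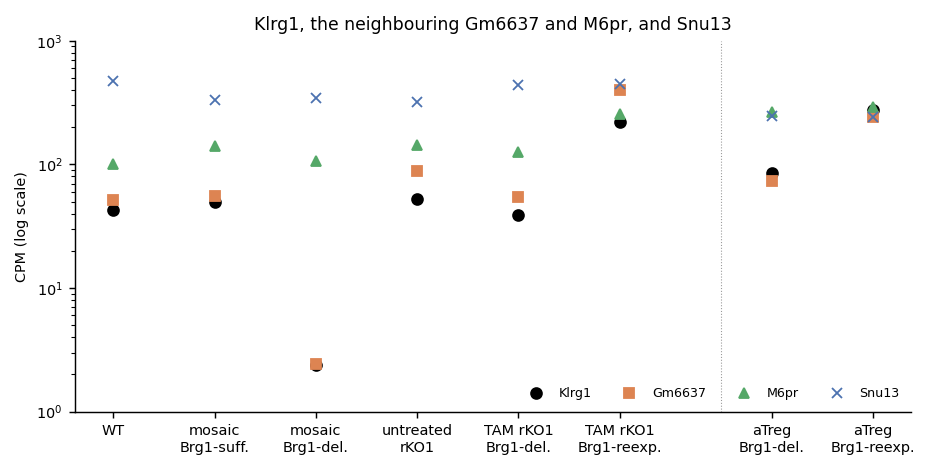
CPM (log scale) of Klrg1, of Gm6637 (12.8 kb away), of the next protein-coding neighbour M6pr and of Snu13, which Gm6637 resembles, in each library (1 point per library, aTreg right of the dotted line). Gm6637, picked for its likeness to Klrg1 in the total Treg libraries, runs from 2.43 CPM in mosaic Brg1-deleted to 399 CPM in Brg1-reexpressed cells. Snu13 stays between 242 and 474 CPM.

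Neighbouring protein-coding genes within 200 kb of Klrg1 numbered 4, of which M6pr and Phc1 were tested in the mosaic, TAM and aTreg contrasts. M6pr, the mannose 6-phosphate receptor, had a log2 fold change of -0.41 in the mosaic, 1.03 with reexpression and 0.11 in the aTreg contrast. Phc1, a Polycomb subunit, had 0.45, -0.41 and -0.09. M6pr was thus called in the TAM contrast, where 12.7% of all genes were, at a value just over the 2-fold rule. Neither neighbour came near the size of the Klrg1 differences.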

How the data were processed

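Per the submitters' processing notes, HISAT2 2.0, StringTie 1.3.3b and featureCounts 1.5.0-p3 were used with mm10. The authors deposited FPKM (fragment numbers divided by exon length and by library total) for 53465 genes, 105 of them not in the annotation used here. From these, reads were recovered as whole numbers (tolerance 0.05 reads) with merged exon lengths of GENCODE M21 (GRCm38): 94.1% of genes with reads in the total Treg files and 100% in the aTreg files came out whole in every library, all 7 members included. Libraries were scaled by an own TMM implementation in Python 3.11.15 (NumPy 2.4.6, SciPy 1.17.1, pandas 2.3.3), separately for the 6 total Treg and 2 aTreg libraries. The filter was 5 CPM in 1 of the libraries compared, the call 2-fold, and 0.125 reads were added before logs. With 1 library per condition no count model was run. The steps were tested on simulated data. Members, lists and comparisons were chosen with earlier results of these data known. Outside the members, named genes were up to 3 of the largest rises and falls of each list in the TAM contrast, fixed cell markers and the 5 genes most like Klrg1, of which 1 is not reported here. Tigit, Tbx21, Cdh1, Cdh2, Klrb1a, Klrb1b, Xist, Snu13, M6pr and Phc1 were named after their values were seen. Alternatives are given at the end.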

Additional observations from a re-analysis of the deposited data

Results flagged for a closer look

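Opposite directions of a member under the same kind of contrast were looked for, each beyond its own counting error. With 1 library per condition, none of these differences was tested. With BRG1 over without BRG1, Klrb1c had a log2 fold change of 3.97 in mosaic females and -3.39 in TAM-treated rKO1 total Treg cells, a difference of 7.36. Klrk1 had 2.94 and -1.11, a difference of 4.06. Between the total Treg and the aTreg libraries labelled Brg1-reexpressed and Brg1-deleted, Klrb1c had -3.39 and 1.57, a difference of -4.96, and Klrk1 had -1.11 and 0.88, a difference of -1.99. In each of these contrasts, the library higher in Klrb1c and Klrk1 was also the one higher in Ncr1, with 104 against 1, 122 against 0 and 41 against 8 reads. The part of Ncr1-expressing cells was not tested. Klrg1 itself was higher in the library labelled with BRG1 in all 3 contrasts.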

How the results depend on the processing

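There were no replicates, so none was left out and no paired analysis was possible because each condition had 1 library. Klrg1 kept its direction and its side of the 2-fold rule in all 32 alternative values, which moved by -0.35 to 0.35 on the log2 scale. With the CPM filter replaced by more than 3 reads in 1 of the libraries compared, the members called were 4 in the mosaic and 4 in the TAM contrast, 5 in untreated rKO1 against WT and 5 against mosaic Brg1-sufficient, 4 in TAM-treated against untreated Brg1-deleted, 2 in WT against mosaic Brg1-sufficient, 5 in Brg1-reexpressed against mosaic Brg1-sufficient cells and 3 in the aTreg contrast, where the shares of all genes called were 22.8%, 29.7%, 33.3%, 34.8%, 23.2%, 25.8%, 35.2% and 25.3%. With at least 1 CPM the members called were 4, 4, 2, 2, 3, 2, 5 and 3 in the same order, and the shares 11.6%, 19.7%, 23.3%, 25.0%, 1529 of 13924 genes, 15.3%, 27.2% and 13.2%. The call added in the aTreg contrast was Klrb1c under both. With the library-to-library range in place of 2-fold, 0 members were called in untreated rKO1 against WT, 1 in Brg1-reexpressed against mosaic Brg1-sufficient and 1 in the aTreg contrast, as Klrb1f lost its call. Among members under the 5 CPM filter, Klrb1c and Klrb1f lay beyond this range in the mosaic, and Klrb1c in the TAM contrast. So did Klrb1c, Klrd1 and Klrk1 in TAM-treated against untreated Brg1-deleted cells. That comparison helped to set the range, so some genes can lie beyond it there by construction, and nothing is concluded from these members. Klrb1c did in untreated rKO1 and Klrc1 in Brg1-reexpressed cells, each against mosaic Brg1-sufficient cells. The share of all genes beyond the range is not given here. Scaling by total reads moved log2 values by up to 0.35, and turned the split of all called genes from 208 higher and 404 lower to 308 and 300 in the mosaic, and from 733 and 581 to 373 and 1265 in the TAM contrast. The split turned from 900 and 743 to 1652 and 468 in untreated rKO1 against WT, from 855 and 950 to 1630 and 457 against mosaic Brg1-sufficient, and from 222 and 233 to 193 and 353 in TAM-treated against untreated Brg1-deleted cells. The ratio of FPKM values turned it from 424 and 519 to 579 and 411 in WT against mosaic Brg1-sufficient cells. Scaling by total reads moved Klrg1 to 2.13 and Klrb1f to -0.55 in the TAM contrast, where Ulbp1, Cd79b and M6pr fell under 2-fold with this shift. Depth limits the rarer members, as with the 45 against 22 reads of Klrk1 in the aTreg contrast, whose fold had an interval of 1.08 to 3.21.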
